A study of Mus musculus with 6 samples.

Results

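The mitochondrial carrier family was examined in RNA sequencing of mouse oocytes that had been matured in vitro with or without quercetin, a plant flavonol with antioxidant activity. Its members were taken as the protein-coding genes whose symbol is *Slc25a* followed by a number, together with *Mtch1* and *Mtch2*. This rule, which uses names and no measured value, found 49 of the 53465 genes in the count table. A further match, *Slc25a5-ps*, is annotated as a transcribed processed pseudogene, and it was left out with 1 to 4 reads in each pool.

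All oocytes were M II stage oocytes of female Kunming (KM) mice of 9 to 10 months, the naturally aged mice of the study. The control group was cultured without quercetin and the quercetin group with 10 μM quercetin, with 3 pools in each group. A pool held 15 oocytes from 3 mice, so a value describes a mixture and not a single oocyte or mouse. The mice had been given a gonadotropin and the oocytes were stripped of cumulus cells by pipetting before culture, in both groups alike.

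Mitochondrial carriers are small membrane proteins that move a substrate across the inner membrane, most often in exchange for another. They carry ADP and ATP, phosphate, amino acids, carboxylates and cofactors, and so link the metabolism of the cytosol to that of the matrix. A mature oocyte hardly transcribes its genes, and it relies on stored messenger RNA and on mitochondria laid down during growth. *Mtch1* and *Mtch2* are divergent relatives that sit in the outer membrane, where *Mtch2* helps to insert other proteins.

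The ADP/ATP carriers supply the clearest contrast among the members, since a pair of them had the highest levels and the remaining one had the smallest p. They export the ATP that mitochondria make and import ADP. In the coding sequences of GENCODE release M21 (GRCm38), *Slc25a4* was identical to *Slc25a5* at 77.5% of aligned bases and *Slc25a31* at 66.7%. The stretch of 48 bases shown for each surrounds the codons of the signature motif by which this type of carrier is known. Capitals mark bases that differ from *Slc25a5*, which therefore has none.
Slc25a5: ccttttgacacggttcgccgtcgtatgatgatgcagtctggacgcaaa
Slc25a4: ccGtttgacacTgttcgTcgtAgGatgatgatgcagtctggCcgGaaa
Slc25a31: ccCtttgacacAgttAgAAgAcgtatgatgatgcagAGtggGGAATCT
In *Slc25a5* (ENSMUSG00000016319) the stretch is coding sequence in exon 3 of 4, at chrX:36797825-36797872 on the plus strand. That of *Slc25a4* (ENSMUSG00000031633) is in exon 3 of 4, at chr8:46208402-46208449 on the minus strand, and differs at 7 bases. That of *Slc25a31* (ENSMUSG00000069041) runs from exon 5 into exon 6 of 6, between 40722716 and 40724879 on the plus strand of chromosome 3 with an intron between, and differs at 15 bases. Even within this conserved motif the genes could be told apart by their bases. Reads of *Slc25a5* are less certain, because 49.4% of the words of 31 bases in its transcripts also occur in 13 other genes, led by *Gm5560*. *Slc25a4* and *Slc25a31* shared none of theirs.

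The 6 pools held 7880467 to 9938743 reads on genes. A control and a quercetin pool correlated at 0.948 to 0.968 in log values, pools of one condition at no more than 0.967, and none stood apart by this measure. The 12 oocyte markers were all above the filter on low counts and together reached 24772 to 28390 CPM (reads of a gene per 1000000 reads of the scaled library) in control and 26075 to 29765 CPM in quercetin. Among them only *Ooep* passed 0.05 without adjustment (log2 fold change -0.92, edgeR adjusted p = 0.988). Single markers varied far more between pools than their sum. *Zp2* had 1990, 12980 and 5601 reads in control and 1045, 7734 and 11260 in quercetin, and *Zp1* and *Zp3* were likewise lowest in pool 1 of both groups. Of 12 cumulus and granulosa cell markers, 5 (*Ptx3*, *Amh*, *Foxl2*, *Fst* and *Amhr2*) had no read in any pool, and the list summed to 62.6 to 77.4 CPM in control and 79.0 to 84.8 CPM in quercetin. Most of this sum was *Cyp19a1*, and without it the ranges were 4.31 to 11.0 and 6.10 to 10.1 CPM. *Has2*, *Ptgs2* and *Fshr* had reads in every pool, 14 to 49, 4 to 31 and 6 to 18, with overlapping groups. *Tnfaip6* had 0, 0 and 0 reads in control and 2, 8 and 4 in quercetin, so it too was apart in this direction. The 5 blood and immune markers summed to 2.80 to 3.83 CPM in control and 3.06 to 3.99 CPM in quercetin, and 2 of them, the globin genes *Hba-a1* and *Hbb-bs*, were at 0 in every pool.

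Of the 49 members, 34 had enough reads to be tested. Another 8 had no read in any pool: *Slc25a18*, *Slc25a28*, *Slc25a29*, *Slc25a34*, *Slc25a41*, *Slc25a42*, *Slc25a43* and *Slc25a47*. A count of 0 allows up to 3 reads, which is 0.328 to 0.375 CPM in these pools, for counting error only. *Slc25a2*, *Slc25a37* and *Slc25a45* had 2 or 3 reads in all pools together. The last 4 untested members, *Slc25a10*, *Slc25a20*, *Slc25a27* and *Mtch2*, had 11 to 48 reads in all. Both mitoferrins, *Slc25a28* and *Slc25a37*, which bring iron into the matrix, and the acylcarnitine carrier *Slc25a20*, which serves fatty acid oxidation, were thus among the members too low to test.

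The family took a small and even share of the reads. It was 0.149%, 0.146% and 0.133% of all counts in the control pools and 0.146%, 0.146% and 0.131% in the quercetin pools. The means, 0.143% ± 0.00832 and 0.141% ± 0.00890 (SD, n = 3 each), differed by less than the spread between pools. *Slc25a31* and *Slc25a5* held 33.5% of the family's reads, and with *Slc25a15*, *Slc25a17* and *Slc25a3* the share was 66.5%.

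Levels of different genes were compared as CPM per kilobase of annotated exon, averaged over all 6 pools. *Slc25a5* led with 130.6 and *Slc25a31* followed with 122.6, and the ranges of their pools overlapped. Next came *Slc25a17* (54.3), *Slc25a14* (40.1) and *Slc25a15* (36.7), each overlapping its neighbour. *Slc25a3* followed at 19.4, below every pool of *Slc25a15*. *Slc25a13* (13.4), *Slc25a26* (9.69), *Slc25a16* (9.38) and *Slc25a38* (9.23) came after it. Among the tested members most neighbours in this order could not be separated, for only 3 pairs had ranges apart: *Slc25a31* above *Slc25a17*, *Slc25a15* above *Slc25a3*, and *Slc25a38* above *Slc25a39*. *Mtch1* was at 0.265 and *Mtch2* at 0.109 CPM per kilobase, in places 32 and 37.

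**Figure D1:**
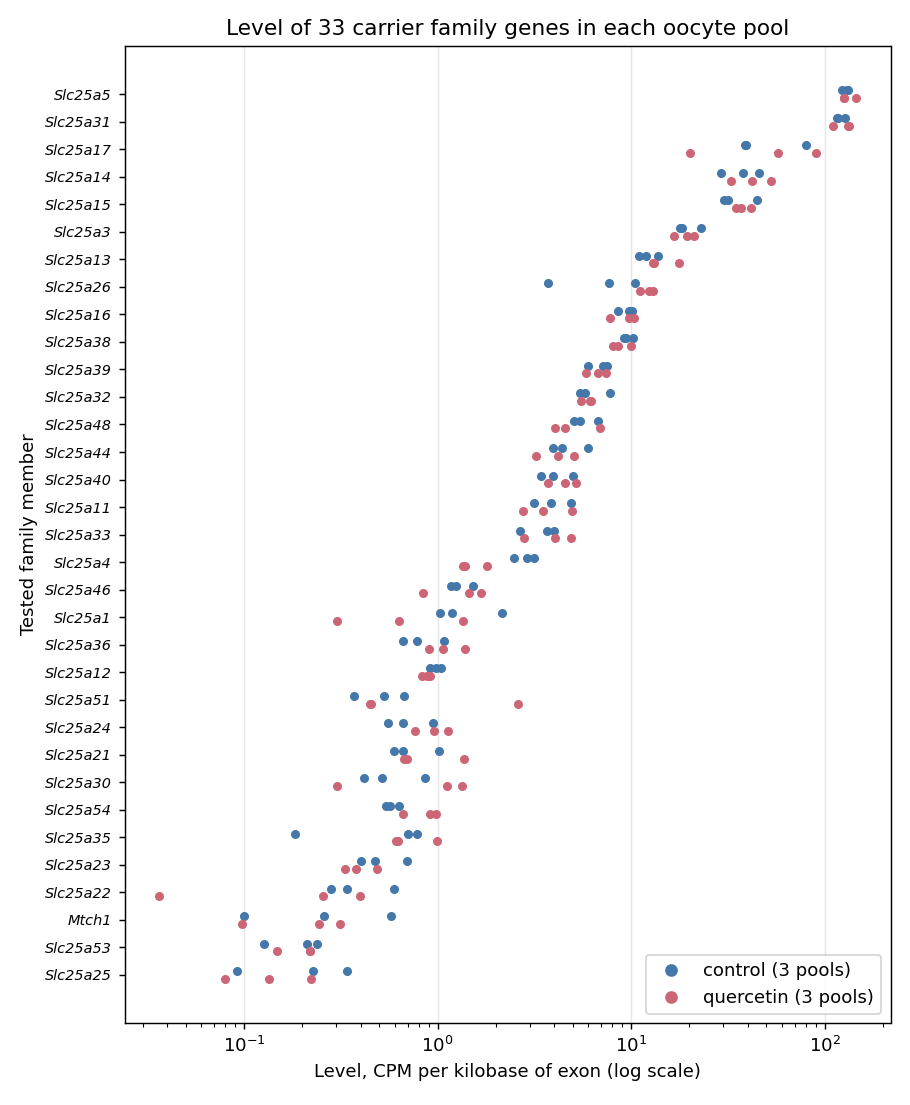
Level of 33 tested members, as CPM per kilobase of exon on a log axis, with a point for every pool, control and quercetin in different colours. *Slc25a5* and *Slc25a31* stand at the top with means of 130.6 and 122.6, and the points of both groups overlap for most members.

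With thresholds of 0.05 for the adjusted p and 2 for the fold change, no member passed between quercetin and control (edgeR's quasi-likelihood test, Benjamini-Hochberg adjustment over all 11842 genes tested). Adjusted p-values of the members ran from 0.988 to 0.999. None of all genes passed either, 0%, with a smallest adjusted p of 0.0730. The paper, which names no program for its test, reports genes higher and lower with quercetin at these same thresholds. Without adjustment, 477 genes had a p under 0.05, and DESeq2 gave 14 genes, none of them a member, an adjusted p under 0.05. At this depth and number of pools, the family therefore held no difference that survived correction.

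At an unadjusted p under 0.05, 1 of the 34 tested members was higher with quercetin, *Slc25a26*, where 2.14% of all tested genes were, and 1 was lower, *Slc25a4*, where 1.89% of all were. In 2 members, *Slc25a26* and *Slc25a54*, the lowest quercetin pool exceeded the highest control pool (5.88% of tested members), beside 5.42% of all tested genes. *Slc25a54* passed the filter on low counts only through its quercetin pools, so the filter itself favoured this direction for it. In 2 others, *Slc25a4* and *Slc25a12*, the highest quercetin pool was under the lowest control pool (5.88%), beside 5.17% of all. These shares lay near those of all genes. Fitted log2 fold changes were above 0 in 18 members and below 0 in 16, and 21 were within 0.3 of 0. Their median was 0.020, beside -0.026 over all tested genes, and the middle of their distribution ran from -0.16 to 0.24, beside -0.24 to 0.17. The median standard error of a log2 fold change was 0.30 for members and 0.29 for all genes, so that the family was measured about as precisely as the rest.

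**Figure D2:**
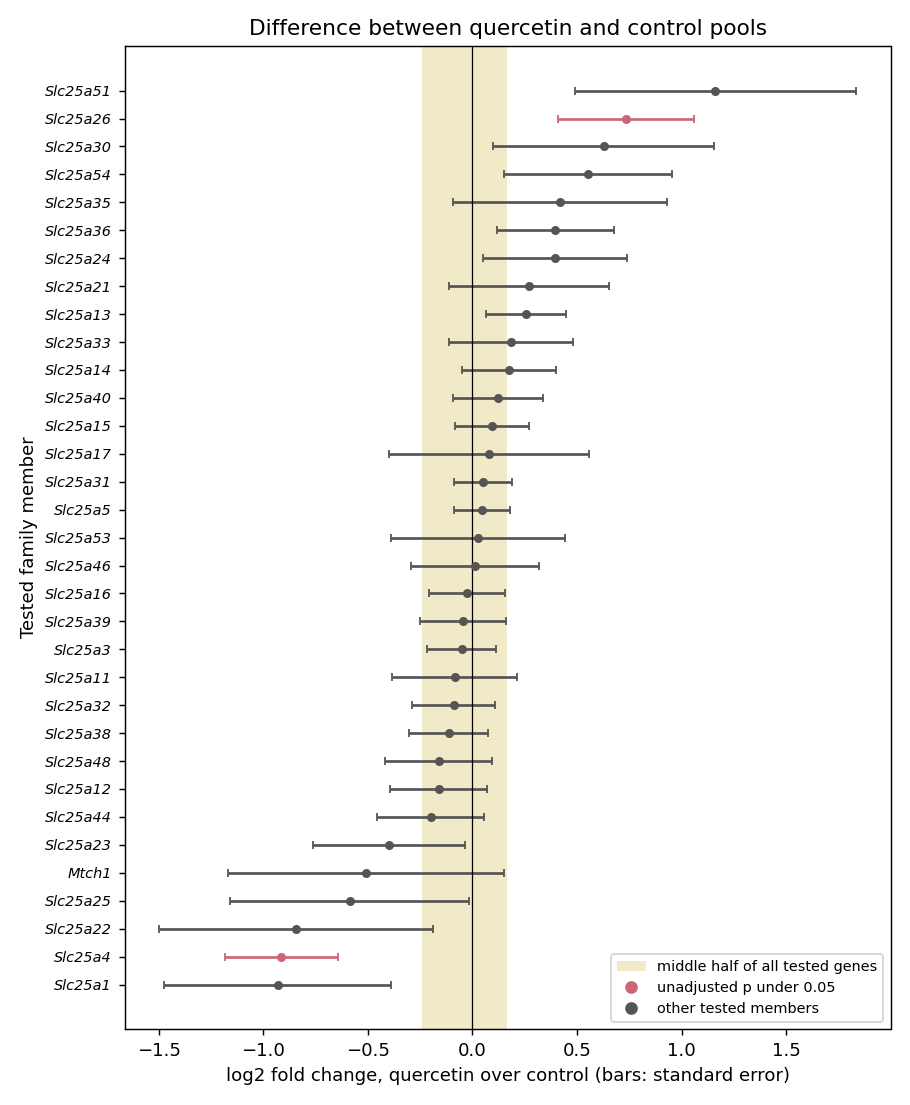
Log2 fold change, quercetin over control, of 33 tested members from the edgeR fit, in order of size, with bars of ± 1 standard error and a shaded band for the middle of all tested genes, -0.24 to 0.17. *Slc25a4* at -0.91 and *Slc25a26* at 0.73 are the members with an unadjusted p under 0.05, and most members lie within 0.3 of 0.

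*Slc25a4* (ANT1, the ADP/ATP carrier typical of muscle and heart) had 52, 62 and 61 reads in the control pools and 26, 29 and 36 in the quercetin pools. Scaled to library size by TMM, these were 5.82, 7.43 and 6.84 CPM against 3.25, 3.17 and 4.22 CPM. All quercetin pools were below all control pools. The means were 6.70 ± 0.816 and 3.55 ± 0.587 CPM (SD, n = 3 each), a ratio of 0.530. The log2 fold change was -0.91 with a standard error of 0.27 (edgeR, unadjusted p = 0.00828, adjusted p = 0.988). The exact two-sided permutation test gave p = 0.1, the smallest that 3 pools against 3 can reach. The summed cumulus and granulosa markers also did not overlap between the groups, in the opposite direction, though without *Cyp19a1* they did. Their part in this difference was not tested.

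*Slc25a5* (ANT2, the form of dividing cells) had 1801, 1818 and 1919 reads in control and 1667, 2179 and 1776 in quercetin. Its means were 211.5 ± 8.81 and 218.3 ± 17.3 CPM, its pools overlapped, and the log2 fold change was 0.05 (standard error 0.13). *Slc25a31* (ANT4, the form of germ cells) had 2206, 2091 and 2418 reads in control and 2265, 2561 and 1993 in quercetin, or 256 ± 13.1 and 266 ± 27.5 CPM. Its log2 fold change was also 0.05 (standard error 0.14). Both stayed within the spread between pools.

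Within the group of ADP/ATP carriers, *Slc25a4* made up 1.03%, 1.25% and 1.11% of the summed level per kilobase in control and 0.529%, 0.485% and 0.753% in quercetin. *Slc25a5* made up 51.1% ± 1.11 and 51.3% ± 2.44 and *Slc25a31* 47.8% ± 1.19 and 48.2% ± 2.52. These oocytes thus held nearly all of their ADP/ATP carrier messenger RNA as *Slc25a5* and *Slc25a31* in both groups. For every 100 reads of *Slc25a5* there were 2.89, 3.41 and 3.18 reads of *Slc25a4* in control and 1.56, 1.33 and 2.03 in quercetin, a ratio that does not depend on the scaling of the libraries.

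**Figure D3:**
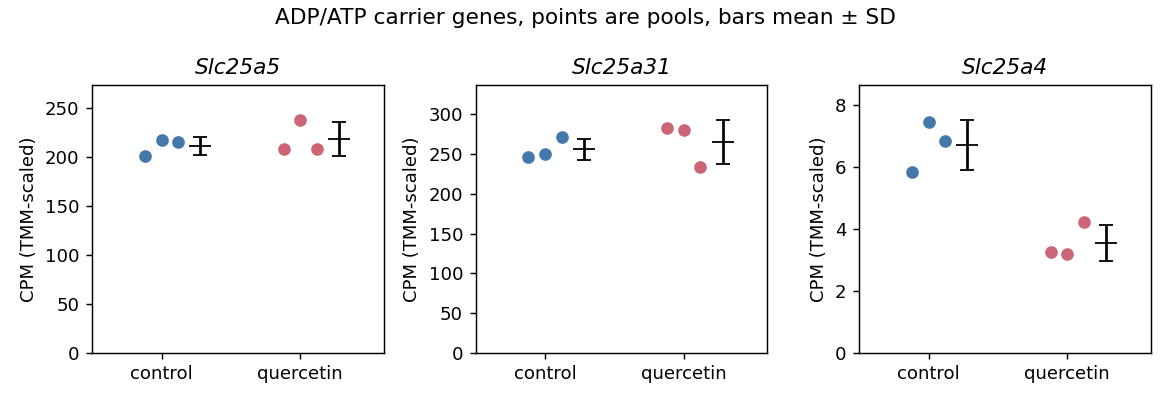
The ADP/ATP carrier genes in TMM-scaled CPM, a point for each pool, with the mean and SD of 3 pools drawn beside them and each vertical axis starting at 0. *Slc25a4* lies at 5.82 to 7.43 CPM in control and 3.17 to 4.22 CPM in quercetin, while the pools of *Slc25a5* and *Slc25a31* overlap.

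The phosphate carrier *Slc25a3*, which brings in the phosphate used to make ATP, had 1138, 850 and 886 reads in control and 937, 983 and 787 in quercetin. The log2 fold change was -0.05 (standard error 0.16) and the pools overlapped. Calcium-regulated exchange of ATP-Mg for phosphate is the task of *Slc25a23*, *Slc25a24* and *Slc25a25*. These were low, with 5 to 33 reads in a pool, and had log2 fold changes of -0.40, 0.39 and -0.59, with no p under 0.05. The pyrimidine nucleotide carriers *Slc25a33* and *Slc25a36* gave 0.18 (standard error 0.30) and 0.40 (standard error 0.28).

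Among carriers of carboxylates, the citrate exporter *Slc25a1* had 20, 39 and 23 reads in control and 11, 6 and 25 in quercetin. This was 3.16 ± 1.32 and 1.65 ± 1.16 CPM, and the third quercetin pool lay above 2 of the control pools. The log2 fold change of -0.93 (standard error 0.54) was the lowest of the family, with an unadjusted p of 0.121 in edgeR. Without quercetin pool 3 it was -1.64, with an unadjusted p of 0.0168 and an adjusted p of 0.305, and without control pool 2 or quercetin pool 2 it was -0.54, with an unadjusted p of 0.395 or 0.311. The malate carrier *Slc25a11* and the oxodicarboxylate carrier *Slc25a21* gave -0.09 (standard error 0.30) and 0.27 (standard error 0.38).

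Of the carriers of amino acids, 6 of 9 were tested, 2 with a log2 fold change above 0 and 4 below. *Slc25a15*, the ornithine carrier of the urea cycle, had 2239, 1497 and 1523 reads in control and 1884, 1911 and 1673 in quercetin, 200.2 ± 43.7 and 213.5 ± 19.9 CPM, with overlapping pools. The aspartate/glutamate carriers of the malate-aspartate shuttle were unequal in level: *Slc25a13* (citrin) was 12.6 ± 2.19 times *Slc25a12* (aralar) per kilobase in control and 16.8 ± 3.85 times in quercetin. Part of this ratio comes from their annotated exon lengths, 3798 and 7342 bases, and by reads it was smaller.

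*Slc25a12* had 60, 64 and 64 reads in control and 49, 59 and 57 in quercetin. At 7.19 ± 0.479 and 6.42 ± 0.286 CPM its pools did not overlap, but the log2 fold change was small, -0.16 (standard error 0.23, edgeR unadjusted p = 0.504), and the pools overlapped under either other scaling. *Slc25a13* had 469, 378 and 372 reads in control and 539, 453 and 424 in quercetin, with a log2 fold change of 0.26 (standard error 0.19). The mitochondrial glutamate importer *Slc25a22* had 32, 17 and 15 reads in control and 19, 2 and 13 in quercetin, and its log2 fold change was -0.84 (standard error 0.65). It was -0.45 without control pool 1, -0.32 without quercetin pool 2 and -1.49 without quercetin pool 1, and no fit gave an unadjusted p under 0.05. *Slc25a38*, which brings in glycine for haem synthesis, and *Slc25a44*, a carrier of branched-chain amino acids, gave -0.11 and -0.20.

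The carriers of cofactors were the group with the most tested members, 8 of 9, with 4 above 0 and 4 below. *Slc25a26*, which brings S-adenosylmethionine, the donor of methyl groups, into the matrix, had 329, 149 and 448 reads in control and 426, 541 and 530 in quercetin. These were 36.8, 17.9 and 50.2 CPM against 53.2, 59.2 and 62.2 CPM. The quercetin pools were all above the control pools, and control pool 2 was the lowest. The means were 35.0 ± 16.3 and 58.2 ± 4.57 CPM, a ratio of 1.66.

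The log2 fold change of *Slc25a26* was 0.73 (standard error 0.32, edgeR unadjusted p = 0.0498, adjusted p = 0.988; exact permutation p = 0.1, the smallest possible). Leaving out control pool 2 gave 0.42 with an unadjusted p of 0.0949, leaving out control pool 3 gave 1.10 with 0.00862, and leaving out any other pool gave an unadjusted p of 0.0651 to 0.105. Scaling by library size alone gave an unadjusted p of 0.0727. The cumulus and granulosa marker sum was higher in all quercetin pools too, though not without *Cyp19a1*, and its part was not tested. Exons of *Lrig1* overlap 3.00% of the exon length of *Slc25a26*.

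*Slc25a17*, a carrier of peroxisomes for cofactors such as coenzyme A, was among the most abundant and the most variable members. It had 990, 1908 and 1000 reads in control and 1310, 2339 and 489 in quercetin. The means were 151 ± 67.7 and 159 ± 99.3 CPM, coefficients of variation of 45.0% and 62.5%. In both groups pool 2 was the highest. *Slc25a51*, the NAD importer, had 26, 17 and 33 reads in control and 20, 131 and 21 in quercetin, so that its log2 fold change of 1.16 (standard error 0.67) came from quercetin pool 2 and was -0.22 without it. The unadjusted p was 0.118, and 0.0410 or 0.0440 when quercetin pool 1 or 3 was left out.

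Other cofactor carriers showed small differences. The glutathione carriers *Slc25a39* and *Slc25a40* gave log2 fold changes of -0.04 and 0.12 (standard errors 0.21 and 0.22). The level per kilobase of *Slc25a40* was 0.604 ± 0.129 of that of *Slc25a39* in control and 0.681 ± 0.155 in quercetin. By reads *Slc25a40* was the higher, with 240 to 375 in a pool against 147 to 177. The order per kilobase thus rests on annotated exon lengths of 8386 bases for *Slc25a40* and 2756 for *Slc25a39*, which need not be those of the transcripts present. *Slc25a16*, linked to coenzyme A, gave -0.03, and *Slc25a32*, a carrier of folate and FAD, gave -0.09.

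Among the 3 relatives of the uncoupling proteins, *Slc25a14* and *Slc25a30* were tested, and *Slc25a27* had 2, 2 and 3 reads in control and 0, 0 and 4 in quercetin. *Slc25a14* (UCP5) was in place 4 of the family by level and had 968, 572 and 802 reads in control and 995, 908 and 665 in quercetin, 88.9 ± 19.9 and 100.5 ± 23.1 CPM. *Slc25a30* had 17, 33 and 21 reads in control and 11, 47 and 52 in quercetin, and its log2 fold change was 0.63 (standard error 0.53). Its pools overlapped through quercetin pool 1, without which it was 1.04 with an unadjusted p of 0.0299 and an adjusted p of 1.00. Without control pool 2 it was 0.98, and without quercetin pool 3 it was 0.27, with unadjusted p-values of 0.138 and 0.652. The uncoupling proteins proper, which the rule does not take in, were nearly absent: *Ucp1* had no read, *Ucp2* 0, 0 and 3 in control and 0, 8 and 2 in quercetin, and *Ucp3* 1 read in all.

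Of 8 members with no substrate assigned here, 4 were tested. *Slc25a54* had 10, 8 and 9 reads in control and 13, 16 and 10 in quercetin. At 1.03 ± 0.0817 and 1.52 ± 0.303 CPM the groups did not overlap, at a depth where 1 or 2 reads decide the order, and the log2 fold change was 0.55 (standard error 0.40, edgeR unadjusted p = 0.201). Relative to library size only its quercetin pools reached the level of the low-count filter, so this separation is no support for a difference. *Slc25a35*, *Slc25a48* and *Slc25a53* gave 0.42, -0.16 and 0.03, and 31.3% of the exon length of *Slc25a35* overlaps *Rangrf*.

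**Figure D4:**
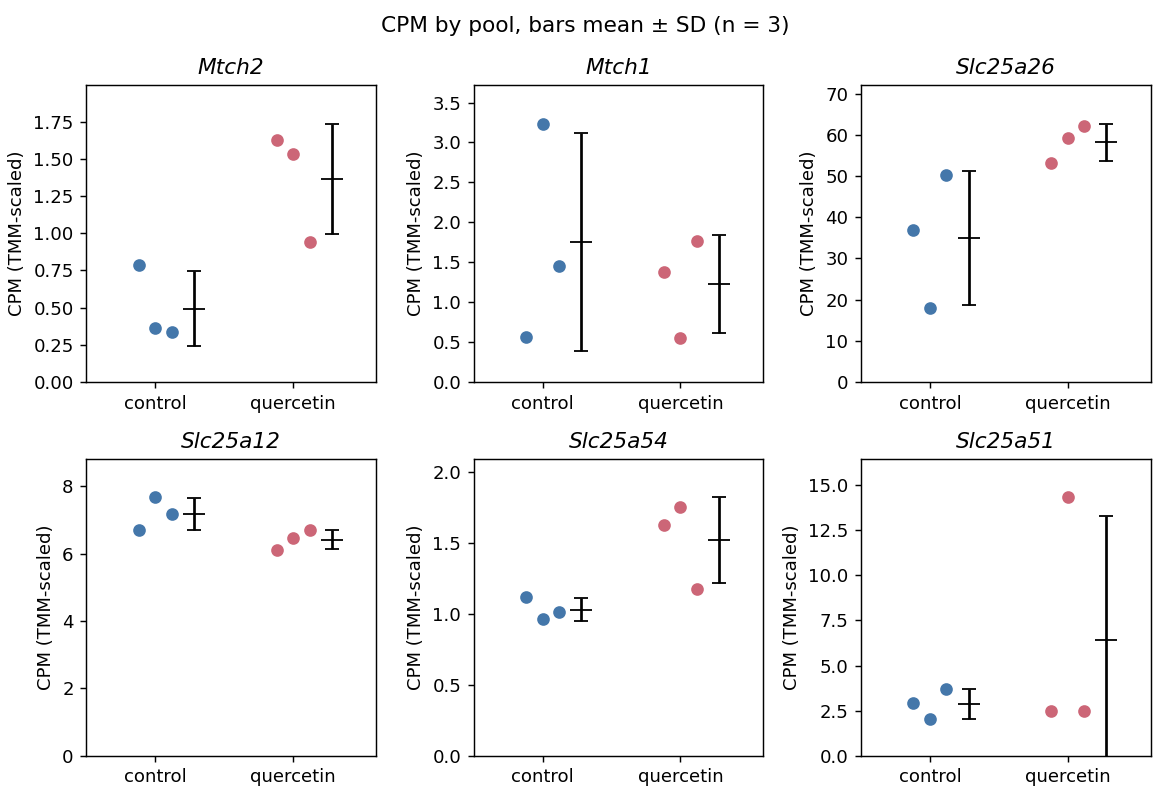
TMM-scaled CPM of members described pool by pool, a point for each pool with the mean and SD of 3 pools beside it and vertical axes starting at 0, which cuts the lower SD bar of *Slc25a51* in quercetin. In *Slc25a26* the quercetin pools at 53.2 to 62.2 CPM lie above the control pools, and in *Slc25a51* quercetin pool 2, at 14.3 CPM, lies far above the others.

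In the outer membrane, *Slc25a46*, which acts in mitochondrial fusion and fission, gave a log2 fold change of 0.01 (standard error 0.31). *Mtch1* had 5, 27 and 13 reads in control and 11, 5 and 15 in quercetin, 1.75 ± 1.36 and 1.23 ± 0.620 CPM. Its log2 fold change was -0.51 (standard error 0.66), and without control pool 2 it was 0.27.

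*Mtch2* (ENSMUSG00000027282, chromosome 2 from 90847155 to 90866810, plus strand) had 7, 3 and 3 reads in control and 13, 14 and 8 in quercetin. The groups did not overlap, and the nearest pools were 1 read apart. The means were 0.493 ± 0.251 and 1.36 ± 0.371 CPM, a ratio of 2.77, with an exact permutation p of 0.1. It did not pass the filter on low counts. In a fit of all genes with at least 1 read its log2 fold change was 1.45 (standard error 0.57, edgeR unadjusted p = 0.0253, adjusted p = 0.834). With single pools left out, *Mtch2* passed the filter on low counts only where quercetin pools 1 and 2 were both kept. The unadjusted p in those edgeR fits was 0.0168 to 0.0890, and without control pool 2 or 3 it was 0.0862 or 0.0890. No control pool reached the filter's level, so the gene entered through its high quercetin pools alone. These p-values therefore give no support for a difference.

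The paper names *Mtch2* among the genes up-regulated by quercetin and presents qPCR of selected genes. *Mtch2* was the member for which the study designed a qPCR primer pair, shown because the matched transcripts tell which isoforms that assay can see. Both primers are in lower case throughout.
Forward primer: tgggcgacaagtatgtcagc
Reverse primer: aggactcctgaacacagtctt
On GRCm38 the forward primer matched exon 2 of 13 at chr2:90849415-90849434 and the reverse primer matched exon 3 at chr2:90849653-90849673. They occur in 5 and 6 of 11 annotated *Mtch2* transcripts and in no other gene, whereas the reads counted here may come from any of the 11.

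Carriers reach the inner membrane through an import route of its own, from the outer membrane receptor TOM70 and the TOM pore, by way of small TIM chaperones, to the TIM22 complex. Of 17 genes of this route, 10 were tested, 5 with a log2 fold change above 0 and 5 below, and none had an unadjusted p under 0.05. Their median was -0.005. *Agk*, a kinase that is also a subunit of the TIM22 complex, had 650, 549 and 609 reads in control and 651, 755 and 761 in quercetin, with a log2 fold change of 0.29 (standard error 0.14, edgeR unadjusted p = 0.0742). *Tomm70a*, the receptor gene, had 8, 16 and 6 reads in control and 0, 3 and 7 in quercetin and was not tested.

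For insertion of proteins into the outer membrane, all 4 genes of the SAM machinery were tested, 2 above 0 and 2 below, none at an unadjusted p under 0.05. *Mtx1* had 20, 17 and 40 reads in control and 15, 15 and 13 in quercetin, with a log2 fold change of -0.80 (standard error 0.41, edgeR unadjusted p = 0.0840). Of 15 inner membrane transporters that do not belong to the members, 14 were in the table and 8 were tested, 4 above 0 and 4 below, again with none at an unadjusted p under 0.05. The subunits of the pyruvate carrier, *Mpc1* and *Mpc2*, gave 0.38 (standard error 0.32) and -0.47 (standard error 0.25).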

How the data were processed

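M II oocytes were sequenced from Smart-seq HT libraries, 6 pools in all. The authors deposited raw counts of reads per Ensembl gene for each pool, without normalization. The paper names Hisat2 and the GRCm38 annotation of Ensembl release 91, while the submitters' processing notes name CASAVA 1.8, TopHat2 2.0.6 and mm10. The counting program and its handling of strand and of reads with several matches are not given in the sources used here, so reads of overlapping or near-identical genes cannot be told apart.

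Symbols matched 53274 identifiers. Exon lengths (union of exons), coordinates and sequences came from GENCODE release M21, and the primers from the study's supplement. Among 24476 genes with at least 1 count, 11842 passed filterByExpr (minimum count 10). Counts were scaled by TMM and tested with glmQLFit and glmQLFTest of edgeR 4.0.16 in R 4.3.3. A standard error is the log2 fold change divided by the square root of F. Permutation tests used log2 CPM with a prior count of 1. The fit was tested on simulated data. Other steps used Python 3.11.15.

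Groups and replicate numbers came from the sample titles, and pool size from the paper. Whether pools shared mice is not stated, so p-values measure the spread between these pools only. Alternatives were DESeq2 1.42.0, the likelihood ratio test, limma-voom (limma 3.58.1), other scalings, other filters, the replicate number as a block and leaving out each pool. Given pool by pool were *Mtch1*, *Mtch2*, the ADP/ATP carriers, the 5 members with the highest levels, members with an unadjusted p under 0.05 or no overlap, and the 3 largest fold changes in each direction, with others added for their role. Counts and medians cover all members, but 1 tested member is not reported here by itself or in the plots. Members and lists were chosen with earlier results of these data known.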

Additional observations from a re-analysis of the deposited data

How the results depend on the processing

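Under all 14 alternatives no member met the adjusted criteria, and the smallest adjusted p of a member ran from 0.239 (without quercetin pool 3) to 1.00. Leaving out any other single pool gave at least 0.987 in the edgeR fit, so quercetin pool 3 had the largest effect on it. *Slc25a4* had an unadjusted p under 0.05 in 14 of 14 (0.00456 to 0.0312, log2 fold change -1.06 to -0.83), and *Slc25a26* in 8 of 14. Members higher at an unadjusted p under 0.05 numbered 0 with library size only and 2 with a filter of at least 1 count in total (*Slc25a26* and *Mtch2*). They numbered 0 to 2 without single pools, being 0 without control pool 2 or quercetin pool 2, and their names changed. They were *Mtch2* without control pool 1 and *Slc25a26* without control pool 3. Without quercetin pool 1 they were *Slc25a30* and *Slc25a51*, and without quercetin pool 3 *Mtch2* and *Slc25a51*. *Mtch2* entered the fits without single pools only through its quercetin pools. Members lower at such a p numbered 1 to 2 without single pools, 2 being reached without quercetin pool 3, where *Slc25a1* joined *Slc25a4*. Members with quercetin pools above all control pools numbered 1 with at least 10 counts required in every pool, which removed *Slc25a54*, and 2 to 6 without single pools (6 without control pool 1, and 4 without quercetin pool 1 or 3). Those below numbered 1 with DESeq2's size factors (*Slc25a4*). With library size only they numbered 2, but *Slc25a38* took the place of *Slc25a12* beside *Slc25a4*. Without single pools they numbered 2 to 5 (4 without quercetin pool 1, and 5 without quercetin pool 3), since fewer pools overlap less often by construction. The median log2 fold change of members was -0.079 with library size only, beside -0.110 for all genes, and -0.057 to 0.137 without single pools. With library size only, *Slc25a5* was at -0.042, *Slc25a31* at -0.037 and *Slc25a17* at -0.056. *Slc25a17* was also at -0.074 in limma-voom and -0.071 with the replicate block. Without single pools the ranges were -0.44 to 0.51 for *Slc25a17*, -0.021 to 0.080 for *Slc25a5*, -0.0036 to 0.35 for *Slc25a14*, -0.22 to 1.55 for *Slc25a51* and -0.93 to 0.27 for *Mtch1*. The cause of these changes of sign was not tested. Deviations of same-numbered pools from their group means correlated at 0.289, 0.110 and -0.0307, so the numbers were not taken as a pairing. With the replicate block the smallest adjusted p of a member was 0.906, no member met the criteria and the median of members was -0.029. For low members only large differences could be told from the spread between pools at this depth, and *Mtch2* and *Slc25a54* rest on a few reads.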
